A study of Mus musculus with 39 samples.

Results

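Livers of phenobarbital-treated mice were compared between day 28 and day 91 of the study, using the 5 arrays labelled as treated and day 28 and the 5 labelled as treated and day 91, which are 10 of the 39 arrays in the series. All mice were male B6C3F1/Crl hybrids (C57BL/6 male x C3H/He female), 29 to 32 days old on arrival, with 5 days to acclimatise. Treated mice drank water with 0.05% (w/v) phenobarbital, and the 5 control livers of day 28 and the 5 of day 91 came from the same strain and sex without phenobarbital and are used here as background. The duration label of each sample gives 28 or 91 days, although the treatment protocol text mentions 28 days only and the extraction protocol text also names kidney. Replicate numbers follow accession order, since the labels give none, and only name the samples. The labels do not state that the 5 samples of a group were separate animals, so the p-values below speak only of how much these samples vary, which may be technical.

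Phenobarbital is a barbiturate that activates the constitutive androstane receptor (CAR, encoded by Nr1i3) indirectly. Active CAR enters the hepatocyte nucleus and switches on genes for drug metabolism, above all cytochromes P450 of the Cyp2b, Cyp2c and Cyp3a families. Under long treatment the liver enlarges, and in mice phenobarbital acts as a liver tumour promoter without damaging DNA. Over the same weeks a young male mouse matures, and growth hormone pulses, sex hormones, feeding and the daily clock also shape liver transcripts.

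RNA of whole liver extract, 0.1 µg per sample, was labelled by 3′ in vitro transcription, and the deposited signals are on the log2 scale, from 2.42 to 15.12. Each gene is given as the log2 signal of 1 probe set, and a difference of 1 is a 2-fold change. Pearson correlations between arrays of a group were 0.9923 to 0.9964 at day 28 and 0.9937 to 0.9961 at day 91, over all probe sets. Mean signals were nearly equal, at 6.233 ± 0.005 (SD, n = 5) and 6.229 ± 0.006 (SD, n = 5). Precision is limited by the small number of arrays.

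Both time points differed in a measure of RNA and labelling quality. The control probe sets for the 3′ ends of Actb and Gapdh exceeded those for the 5′ ends by 0.461 ± 0.037 (SD, n = 5) on treated day 28 arrays and by 0.623 ± 0.061 (SD, n = 5) on treated day 91 arrays. The ranges, 0.422 to 0.503 and 0.542 to 0.690, did not overlap (exact 2-sided permutation test, p = 0.00794, adjusted p = 0.0317 over 4 array measures). In controls the same measure was 0.663 ± 0.108 (SD, n = 5) at day 28 and 0.570 ± 0.173 (SD, n = 5) at day 91 (exact permutation p = 0.333). The 18 spike-in probe sets averaged 10.864 ± 0.080 (SD, n = 5) and 11.125 ± 0.159 (SD, n = 5) on treated arrays (exact permutation p = 0.0317, adjusted p = 0.0635). Because the 3′ to 5′ difference moved with the day in treated livers, the effects of both cannot be told apart, and the leading results below are also given from a model with this difference as a covariate.

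**Figure D1:**
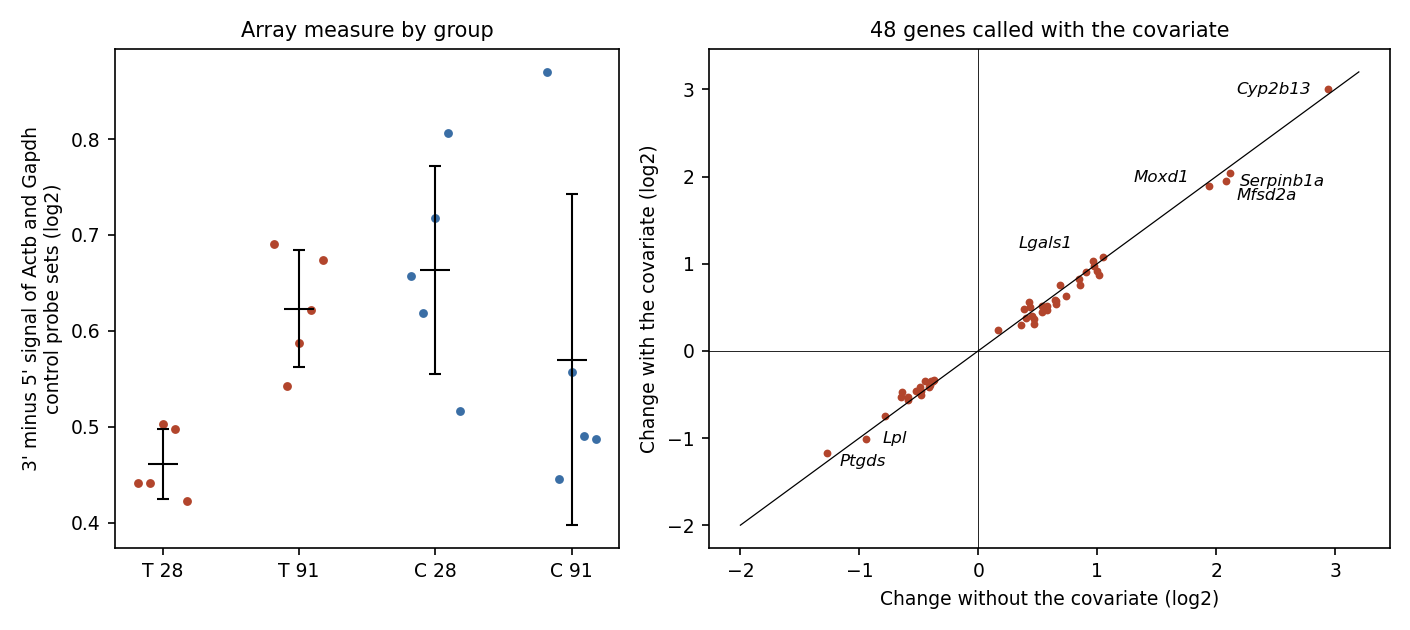
Left, the 3′ minus 5′ signal (log2) averaged over the control probe sets for Actb and Gapdh for each array, with the mean and SD of 5 arrays, for treated (T) and control (C) livers at day 28 and day 91; treated day 91 arrays (0.542 to 0.690) all lie above treated day 28 arrays (0.422 to 0.503). Right, the change of the 48 genes that passed the threshold with this measure as a covariate, without it (horizontal axis) and with it (vertical axis); the line marks equal values, and the genes shown were chosen as those that still passed.

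From day 28 to day 91, 1163 genes were higher and 1002 lower in treated livers among 12580 genes tested (limma, Benjamini-Hochberg adjusted p under 0.05). These are 9.24% and 7.97% of the genes tested, together 2165 genes or 17.2%, and 4181 genes had an unadjusted p under 0.05. Most changes were small, with a median absolute change of 0.32 among the genes called. Of the genes called, 22 rose at least 2-fold (0.175% of those tested) and 3 fell at least 2-fold (0.0238%). For 938 genes (7.46%) all 5 day 91 arrays lay above all 5 day 28 arrays, and for 933 (7.42%) all lay below. In controls the same held for 519 (4.13%) and 350 (2.78%).

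The count rested on some arrays more than others. It fell to 747 higher and 539 lower without treated day 28 replicate 2, and to 686 higher and 511 lower without treated day 28 replicate 4. With the 3′ to 5′ covariate 48 genes passed, 30 higher and 18 lower. All 48 were also called without it, and all 2165 genes kept their sign, with changes at a median of 0.708 of their size and standard errors at a median of 1.13 times.

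Control livers changed as well over these days. In them 1060 genes were higher and 645 lower, which are 8.43% and 5.13% of the genes tested and 13.6% together. In both, 149 genes were called in the same direction, 86 higher and 63 lower, which is 6.88% of the treated calls and 8.74% of the control calls. Another 136 were called in opposite directions, a count that rested on single arrays and on the model. It was 47 without control day 28 replicate 4, 345 without control day 28 replicate 5, 344 without control day 91 replicate 1 and 62 without treated day 28 replicate 2, and 1 with the 3′ to 5′ covariate. Without any 1 of 7 further arrays it lay between 63 and 85. The treated change itself differed from the control change for 2727 genes (21.7%), higher for 1149 (9.13%) and lower for 1578 (12.5%), by the interaction contrast of the same model. Of the 2165 treated calls, 1217 (56.2%) were among them. With the 3′ to 5′ covariate no such difference passed (limma, adjusted p under 0.05), and 1775 genes had an unadjusted p under 0.05, so the differences between treated and control change given below are all from the model without it.

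**Figure D2:**
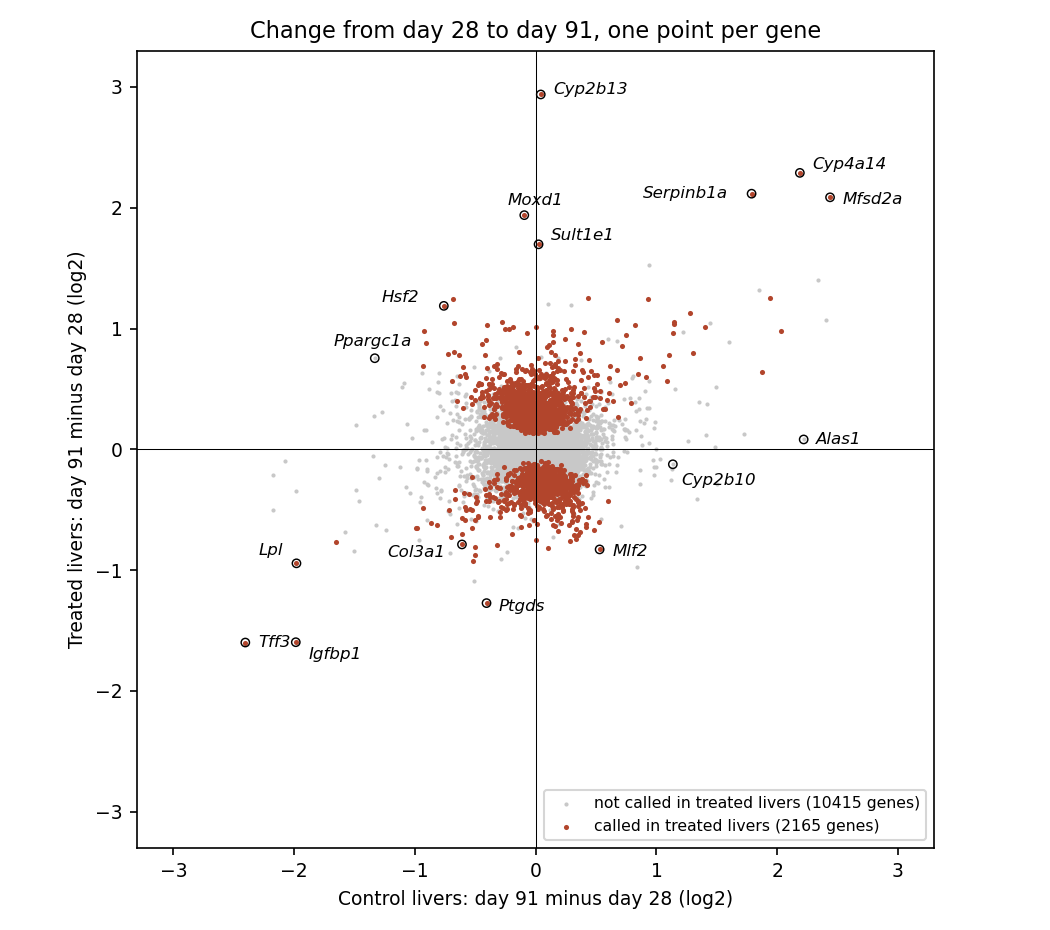
Each point is 1 of 12580 genes, with its day 91 minus day 28 difference in control livers (horizontal, log2) and in treated livers (vertical, log2); red points are the 2165 genes called in treated livers. Cyp2b13 (2.94), Moxd1 (1.94) and Sult1e1 (1.70) rose in treated livers at control changes near 0, Serpinb1a, Mfsd2a and Cyp4a14 rose in both, and Tff3, Igfbp1 and Lpl fell in both.

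The largest rise was that of Cyp2b13, a cytochrome P450 of the Cyp2b family that male mouse liver normally expresses weakly (probe set 1449479_at). Its signals were 7.31, 8.12, 8.81, 6.62 and 7.63 at day 28 and 10.80, 11.40, 10.18, 10.61 and 10.19 at day 91. The groups did not overlap, and the lowest day 91 array was above the highest day 28 array by more than the range within day 91. The rise was 2.94 with SE 0.56, or 7.66-fold (limma, adjusted p = 0.00139). Control livers stayed at 5.79 ± 0.28 and 5.83 ± 0.10 (SD, n = 5 each), and the difference between the 2 changes was 2.90 (limma, adjusted p = 0.0113). With the 3′ to 5′ covariate the rise was 3.00 (limma, adjusted p = 0.0299). The Cyp2b genes are close in sequence, and whether this probe set also reads Cyp2b9 was not tested.

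Cyp2b9 itself, its female-biased neighbour in the family, had signals of 8.57, 9.69, 9.94, 8.86 and 8.90 at day 28 and 10.13, 10.98, 9.83, 10.26 and 10.12 at day 91. One day 91 array lay within the day 28 range. Its change of 1.07 did not pass (limma, adjusted p = 0.170), whereas in controls Cyp2b9 went from 5.02 to 7.42 (limma, adjusted p = 0.00367). The difference between the 2 changes was not called (limma, adjusted p = 0.216). Cyp2b9 was named after its values were seen.

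Moxd1, a copper-dependent monooxygenase-like protein, rose with wide scatter. Its signals were 6.54, 5.41, 4.81, 4.78 and 5.31 at day 28 and 8.05, 5.03, 9.01, 7.85 and 6.60 at day 91. Of the 5 day 91 arrays, 4 lay above every day 28 array, and replicate 2 stayed within the day 28 range. The rise was 1.94 with SE 0.37 (limma, adjusted p = 0.00139), against -0.09 in controls, with a difference of 2.03 (limma, adjusted p = 0.00798). With the 3′ to 5′ covariate the rise was 1.89 (limma, adjusted p = 0.0393). Moxd1 passed the filter on low values only through its day 91 treated arrays, so that it had to differ, and the test adds nothing to the values. Over all genes this held for 7 of the calls higher, and 5 of the calls lower passed only through treated day 28.

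Sult1e1, the sulfotransferase that inactivates estrogens, had signals of 4.94, 4.97, 5.14, 4.89 and 4.99 at day 28, below the array medians. At day 91 they were 6.69, 5.51, 7.78, 7.70 and 5.73, all above day 28. The rise of 1.70 passed (limma, adjusted p = 0.0276), but not without day 28 replicate 2, day 28 replicate 4, day 91 replicate 3 or day 91 replicate 4 (up to 0.0836). Its difference from the control change of 0.02 did not pass (limma, adjusted p = 0.105). With the covariate it was 1.52 and did not pass (limma, adjusted p = 0.249).

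Nebl, which encodes the actin-binding protein nebulette, was at 8.06, 8.01, 8.19, 7.47 and 8.24 at day 28 and at 9.10, 8.21, 9.35, 9.02 and 8.53 at day 91. Day 91 replicate 2 again lay within the day 28 range, and the other 4 lay above it. Nebl rose by 0.85 (limma, adjusted p = 0.0013, and 0.0374 with the covariate) from a level already far above controls, which stayed at 4.42 and 4.51. Its 2 other probe sets did not pass the filter on low values, with day 91 means of 3.47 and 3.82.

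Kcnk1, a potassium channel, was at 8.30, 8.28, 7.80, 7.79 and 7.97 at day 28 and at 9.56, 7.47, 9.97, 9.49 and 8.45 at day 91. All day 91 arrays but replicate 2, which was the lowest of all 10, were above the day 28 range. The rise of 0.96 passed (limma, adjusted p = 0.0109), with a difference from controls of 1.03 (limma, adjusted p = 0.0378), but not with the covariate (limma, adjusted p = 0.138). Nebl and Kcnk1 belong to a list of 4 genes chosen from earlier results of these arrays as rising late under treatment, which is no independent evidence of their direction. The remaining 2, Gm10419 and Ccn4, changed by 0.20 and -0.26 and were not called.

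Of the long noncoding RNAs of the imprinted Dlk1-Dio3 cluster, expressed from the maternal chromosome, Meg3 and Rian were above controls at both times, without a call over the interval. Meg3 was at 11.16, 10.99, 10.94, 10.62 and 11.12 at day 28 and at 11.43, 10.78, 12.15, 11.76 and 11.13 at day 91, and the groups overlapped. Its change of 0.48 did not pass (limma, adjusted p = 0.0692), but differed by 0.77 from that in controls, where Meg3 went from 8.72 to 8.43 (limma, adjusted p = 0.0363). Meg3 rose by 0.65 without day 91 replicate 2 (limma, adjusted p = 0.0186) and by 0.56 with array weights (limma, adjusted p = 0.012). Of its 10 other probe sets, 5 were higher at day 91, by 0.31 to 0.86. Rian was at 8.18 ± 0.48 (SD, n = 5) and 8.35 ± 0.75 (SD, n = 5), against 5.47 and 5.33 in controls. Mirg was at 6.66 and 6.85, against 6.48 and 6.56 in controls. None of the 3 tested members of the cluster was called (limma), and 2 had an unadjusted p under 0.05.

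The order of the day 91 arrays recurred among these genes. Replicate 3 was the highest and replicate 2 the lowest of the 5 for Moxd1, Nebl, Kcnk1, Meg3, Sult1e1 and Tmeff2, and replicate 5 came next to last in each. For Rian replicate 3 was also the highest. Cyp2b13 had the reverse ends, with replicate 2 highest and replicate 3 lowest. Over the 22 genes that rose at least 2-fold, replicate 3 was highest for 6 and lowest for 6, and replicate 2 highest for 7 and lowest for 7. The 3′ to 5′ difference ordered these arrays otherwise, with replicate 1 highest at 0.690, replicate 3 at 0.587 and replicate 2 lowest at 0.542. This order was noticed in the data and is given as a description of 5 arrays.

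Some of the strongest rises occurred in control livers too. Serpinb1a, an inhibitor of neutrophil serine proteases, went from 7.06, 8.12, 8.12, 7.36 and 7.43 to 9.87, 10.17, 9.15, 9.91 and 9.57, with no overlap. The rise was 2.12 with SE 0.19, or 4.34-fold (limma, adjusted p = 4.21e-09, and 2.04 with the covariate). Control livers rose by 1.79 from a lower level, 5.98 to 7.77, and the 2 changes were not called different (limma, adjusted p = 0.386). A second Serpinb1a probe set, 1448301_s_at, rose by 2.88 in treated and 0.96 in control livers.

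Mfsd2a, a membrane transporter for lysophosphatidylcholine that fasting induces in liver, went from 6.26, 7.08, 7.21, 7.27 and 6.92 to 9.46, 9.52, 8.77, 8.63 and 8.80. The groups were far apart, and the rise of 2.09 was 4.25-fold (limma, adjusted p = 0.000297). In controls Mfsd2a rose by 2.44. Snhg11, a small nucleolar RNA host transcript, rose by 1.05 in treated and 1.15 in control livers. A second Snhg11 probe set changed by 0.61 in treated and by 0.11 in control livers, the latter without a call (limma, adjusted p = 0.00373 and 0.667). Lgals1, which encodes galectin-1, rose by 0.97 and 1.13, and Apoa4, an apolipoprotein of lipid transport, by 0.69 and 0.61. Each of these 4 calls held with the covariate, and for none of the 4 was a difference between treated and control change called.

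Further rises with no overlap in treated livers were those of Aqp4, the water channel aquaporin 4, by 1.25, and Lipg, endothelial lipase, by 1.24. Olfm3, an olfactomedin protein, rose by 1.07. Aqp4 and Lipg each had a second probe set that rose, by 0.71 and 0.93. With the covariate none of the 3 passed (limma, adjusted p = 0.101, 0.0819 and 0.135). In controls Lipg rose by 0.93, whereas Aqp4 changed by 0.43 and Olfm3 by 0.67 without a call. Cav1, Rasgrp2 and Tmeff2, chosen after their values were seen among the calls that held with the covariate, also rose. Cav1, the main protein of caveolae, rose by 1.00, Rasgrp2, a guanine nucleotide exchange factor, by 0.97, and Tmeff2, a transmembrane protein with follistatin domains, by 1.01. Their changes differed from those in controls by 0.71, 0.57 and 1.01 (limma, adjusted p = 0.0281, 0.0393 and 0.00761). Tmeff2, like Moxd1, passed the filter only through day 91 treated arrays.

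**Figure D3:**
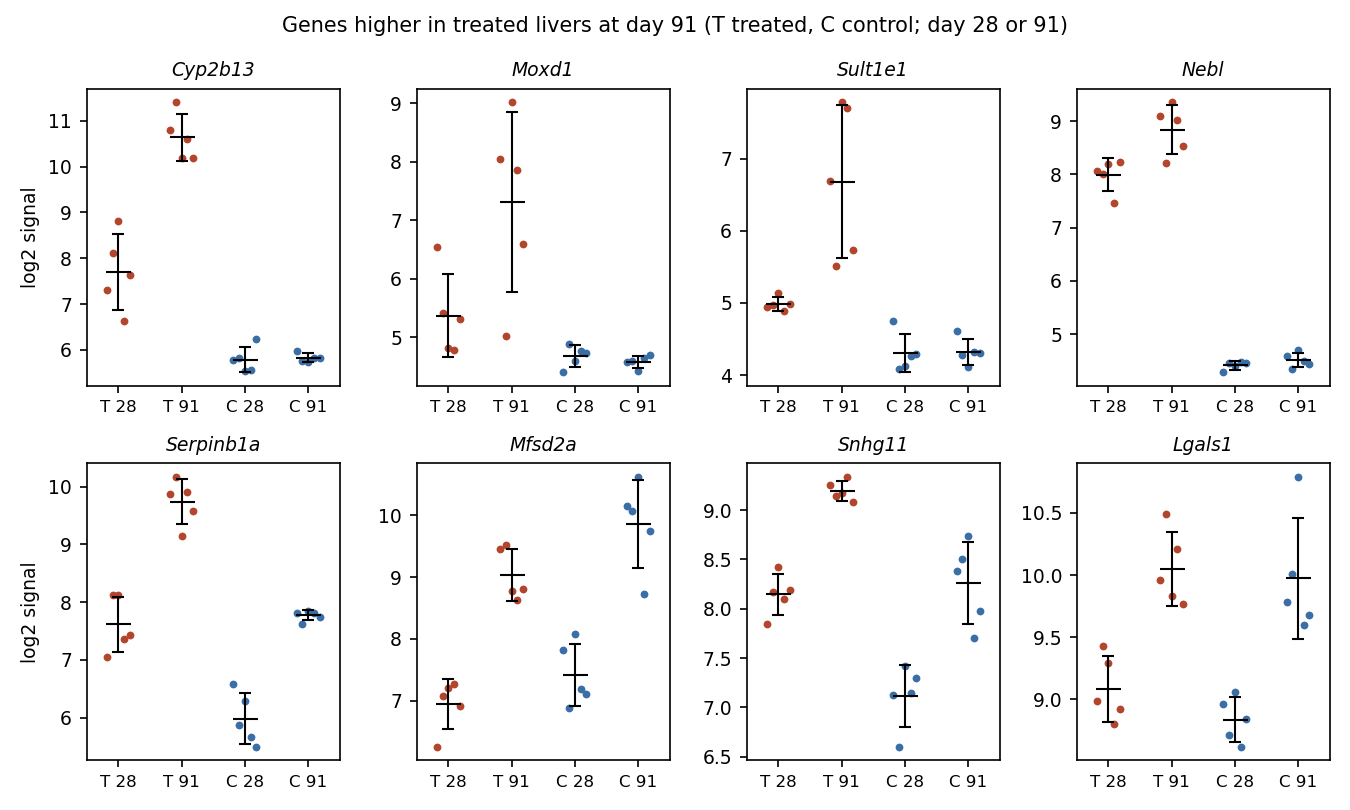
Log2 signals of 8 genes on each array, for treated (T, red) and control (C, blue) livers at day 28 and day 91, with the mean and SD of 5 arrays. The upper row shows genes that rose in treated livers at flat controls (Cyp2b13 from 7.70 to 10.64), with wide scatter at day 91 for Moxd1 and Sult1e1, and the lower row genes that rose in both (Serpinb1a by 2.12 and 1.79).

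Tff3, a trefoil peptide of mucous epithelia, was at 8.43, 7.30, 7.91, 7.76 and 7.76 at day 28 and at 6.37, 6.02, 6.79, 6.08 and 5.92 at day 91, with no overlap. It fell by 1.60 (limma, adjusted p = 0.00854), and by 2.40 in controls. With the 3′ to 5′ covariate the fall was of the same size, -1.60, but did not pass (limma, adjusted p = 0.117).

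Lpl, lipoprotein lipase, which adult hepatocytes normally silence, was at 11.28, 11.06, 11.09, 11.37 and 11.23 at day 28 and at 10.40, 10.16, 10.43, 10.28 and 10.03 at day 91. These tight groups lay well apart. Lpl fell by 0.94 (limma, adjusted p = 0.000268, and 0.00425 with the covariate). Controls fell further, by 1.98, to 9.29 at day 91 against 10.26 ± 0.17 (SD, n = 5) in treated livers, and the 2 changes differed by 1.04 (limma, adjusted p = 0.00188). A second Lpl probe set fell by 1.34 in treated and 2.07 in control livers.

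Ptgds, prostaglandin D synthase, was at 8.90, 9.13, 8.86, 10.92 and 9.44 at day 28 and at 8.36, 8.25, 8.37, 8.13 and 7.76 at day 91. The groups did not overlap, and day 28 replicate 4 stood above the others. The fall of 1.27 passed (limma, adjusted p = 0.00139, and 0.0469 with the covariate), and no single array ended the call. In controls Ptgds changed by -0.41 without a call, and the difference did not pass (limma, adjusted p = 0.0641).

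Igfbp1, a binding protein that fasting and stress induce, fell by 1.60 (limma, adjusted p = 0.0186), and in controls by 1.99. Its day 28 signals were 10.81, 11.26, 11.18, 11.66 and 8.53 and its day 91 signals 8.46, 9.55, 9.23, 9.17 and 9.03, which overlap through day 28 replicate 5. The call was lost without day 28 replicate 2 or day 28 replicate 4. Irs2, an insulin receptor substrate that rises in fasting, fell by 0.77 with no overlap, and in controls it fell by 1.65, a difference of 0.89 (limma, adjusted p = 0.0456). Its treated call was lost without day 91 replicate 1 (limma, adjusted p = 0.0504). Neither Igfbp1 nor Irs2 passed with the covariate (limma, adjusted p = 0.206 and 0.336).

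Among other falls with no overlap were those of Fam25c by 0.81, Sod3, the extracellular superoxide dismutase, by 0.81, and Ppard, the nuclear receptor PPAR delta, by 0.88. In controls Fam25c fell by 0.51, and Sod3 and Ppard changed by 0.11 and -0.50 without a call. None of these 3 calls held with the covariate. Arhgef7, named after its values were seen, fell by 0.59 in treated livers at -0.01 in controls (limma, adjusted p = 0.00252 for the difference). Its call held with the covariate (limma, adjusted p = 0.00784).

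Several collagens and other matrix genes fell. Of 26 tested members of the list of stellate cell, fibroblast and collagen genes, 8 were lower and 1 was higher in treated livers, beside 7.97% called lower and 9.24% called higher over all genes tested, with a median of -0.15 against -0.03 over all genes tested. In controls 8 were lower and none higher, with a median of -0.07. Col3a1, a fibrillar collagen, was at 10.08, 10.15, 10.33, 9.71 and 9.89 at day 28 and at 9.21, 9.30, 9.36, 9.50 and 8.85 at day 91. The groups did not overlap, and Col3a1 fell by 0.79 (limma, adjusted p = 0.000297). Sparc, a collagen-binding matrix glycoprotein, was at 9.43 to 9.52 on all 5 day 28 arrays and at 8.68, 8.82, 8.99, 9.17 and 8.49 at day 91, a fall of 0.65 (limma, adjusted p = 0.000297).

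The basement membrane collagens Col4a1 and Col4a2 lie head to head and share a promoter region, so the sequence at their starts is shown. Both windows are from RefSeq on GRCm38.p6, 250 bases before to 50 after each annotated start, 5′ to 3′ on the strand of the gene, and capitals mark the 78 bases that the windows share on opposite strands (chr8:11312777-11312854). Col4a1 is at chr8:11312777-11313076, minus strand, and Col4a2 at chr8:11312555-11312854, plus strand.
Col4a1: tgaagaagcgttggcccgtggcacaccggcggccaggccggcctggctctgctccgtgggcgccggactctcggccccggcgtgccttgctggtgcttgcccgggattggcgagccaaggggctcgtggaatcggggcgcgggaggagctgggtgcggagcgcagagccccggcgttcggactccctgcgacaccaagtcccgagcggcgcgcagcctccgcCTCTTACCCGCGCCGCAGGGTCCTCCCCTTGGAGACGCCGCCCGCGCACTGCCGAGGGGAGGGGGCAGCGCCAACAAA
Col4a2: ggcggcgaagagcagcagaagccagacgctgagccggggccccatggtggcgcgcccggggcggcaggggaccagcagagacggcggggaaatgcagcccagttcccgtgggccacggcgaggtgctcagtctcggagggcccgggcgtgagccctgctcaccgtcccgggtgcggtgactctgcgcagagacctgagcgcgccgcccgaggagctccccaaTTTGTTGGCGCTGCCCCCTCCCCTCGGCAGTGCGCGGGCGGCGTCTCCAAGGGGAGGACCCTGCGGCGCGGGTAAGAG
The annotated starts are 21 bases apart. A search of both strands found 1 CCAAT in each window, and GGGCGG once for Col4a1 and 3 times for Col4a2; of all 32851 such windows, 37.4% hold CCAAT and 35.7% hold GGGCGG. These matches describe the sequence only.

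Col4a1 was at 8.78, 9.06, 9.18, 9.03 and 8.97 at day 28 and at 8.27, 8.43, 8.57, 8.63 and 8.18 at day 91. Col4a2 was at 8.61, 8.80, 8.93, 8.66 and 8.45 at day 28 and at 8.09, 8.33, 8.07, 8.02 and 8.35 at day 91. Neither gene's groups overlapped, and the falls were 0.59 and 0.52 (limma, adjusted p = 0.000323 and 0.00108). Controls fell by 0.50 and 0.30, and the differences were not called (limma, adjusted p = 0.657 and 0.229). The other members called lower were Col1a2 at -0.59, with -0.58 in controls, Col5a2 at -0.39, the collagen cross-linking enzyme Lox at -0.40 and Bgn at -0.22, a call lost without day 28 replicate 3. Pdgfra, a receptor of fibroblasts and stellate cells, rose by 0.57, at -0.01 in controls. Outside the list, the microfibrillar collagen Col6a3 fell by 0.48 and Serpinh1, the collagen chaperone HSP47, by 0.79. The calls of Col3a1, Col4a1, Col4a2, Sparc and Col6a3 held with the 3′ to 5′ covariate, and that of Serpinh1 did not (limma, adjusted p = 0.0629). In whole liver RNA, fewer cells of a type and less RNA per cell cannot be told apart.

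**Figure D4:**
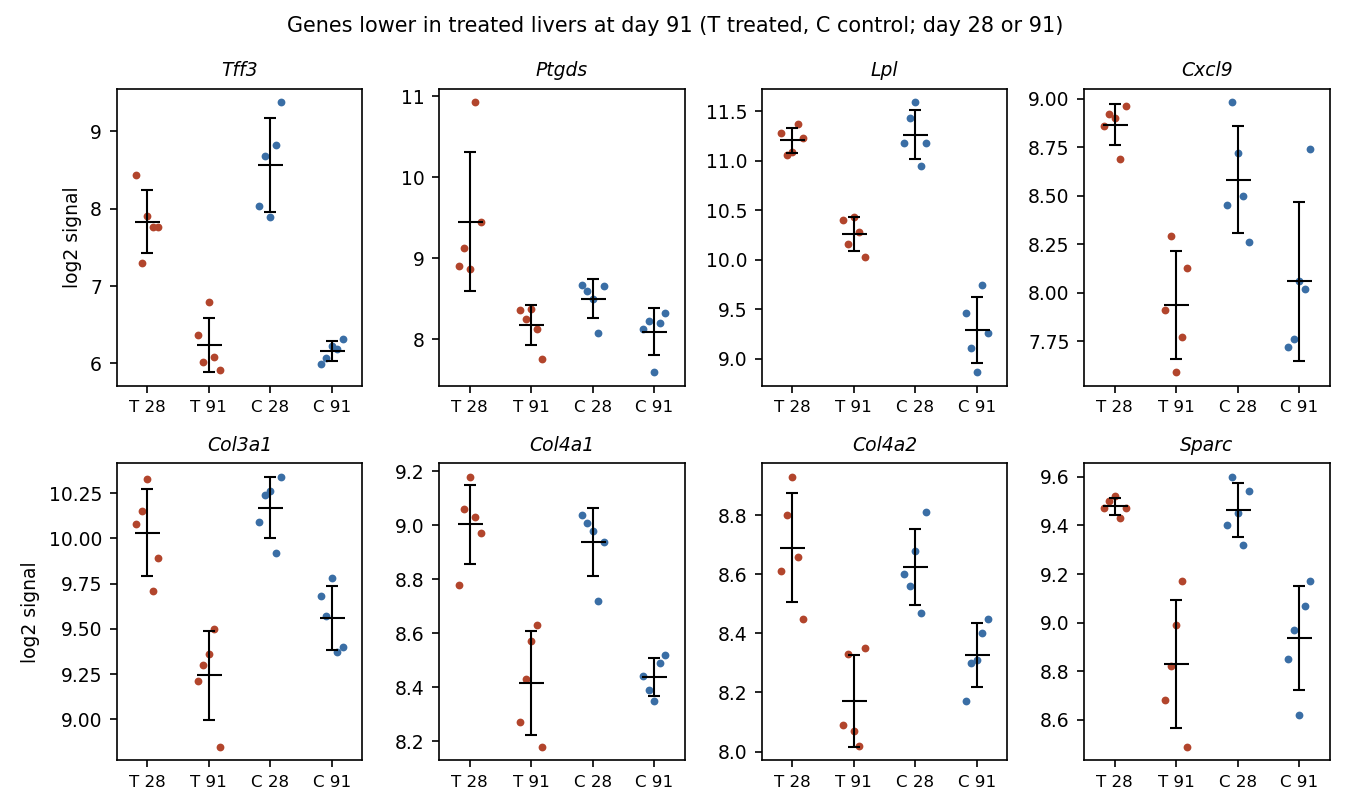
Log2 signals of 8 genes on each array, for treated (T, red) and control (C, blue) livers at day 28 and day 91, with the mean and SD of 5 arrays. In treated livers all 8 genes have day 91 arrays below every day 28 array; Lpl fell by 0.94 in treated and 1.98 in control livers, and Col4a1 by 0.59 and 0.50.

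Few drug metabolism genes that phenobarbital induces were called. Of 26 CAR-responsive cytochromes P450 and other phase I enzymes, Cyp2b13 alone was called (3.85%, beside 17.2% over all genes tested), and the median was 0.03. In controls 8 of these genes were higher and 2 lower. The treated change was called higher than the control change for 1 of the 26 and lower for 4. Over all genes tested these shares were 9.13% and 12.5%. Cyp2b10, the classical CAR target, was at 13.67, 13.68, 13.73, 13.66 and 13.65 at day 28 and at 13.64, 13.41, 13.59, 13.53 and 13.59 at day 91. All day 91 arrays lay just below the day 28 arrays, near the top of the signal range. The change of -0.12 was not called (limma, adjusted p = 0.711), in a model whose spread is shared by all 8 groups. With the spread of the compared arrays only it passed (limma, adjusted p = 0.0443). In controls Cyp2b10 rose by 1.14, from 6.78 to 7.91, so the 2 changes differed by -1.26 (limma, adjusted p = 0.00484).

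Cyp2c55 had the same pattern, from 13.51 ± 0.02 (SD, n = 5) to 13.21 ± 0.10 (SD, n = 5) with no overlap and a change of -0.30 (limma, adjusted p = 0.357, and 0.00145 with the compared arrays only). Cyp2c65 was at 10.76 and 10.97, against 3.83 in controls at both times, and Cyp3a11 at 14.63 and 14.67. Neither passed. Nr1i3, the gene of CAR itself, was at +0.23 without a call (limma, adjusted p = 0.171), and rose by 0.53 in controls. Of the nuclear receptors and liver transcription factors, 1 of 16 was called (6.25%, beside 17.2% over all genes tested), the glucocorticoid receptor Nr3c1, which rose by 0.29.

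Among 28 conjugation enzymes none rose and 4 fell, at a median of -0.05. The called share was 14.3%, beside 7.97% called lower and 17.2% called in either direction over all genes tested. The falls were those of the glutathione transferases Gstm1 by 0.22, Gstm2 by 0.62 and Gstm4 by 0.41, and of the sulfotransferase Sult1a1 by 0.28. The Gstm genes are close paralogs, so their probe sets may share signal. The Gstm2 and Gstm4 calls were lost without day 91 replicate 5, and that of Gstm1 without day 28 replicate 2, day 28 replicate 4 or day 91 replicate 4. In controls 5 members rose and none fell, among them Gstt3 by 1.12, at -0.26 in treated livers, a difference of -1.38 (limma, adjusted p = 0.00181).

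Alas1, the rate-limiting enzyme of heme synthesis, was at 12.79, 11.30, 12.08, 11.46 and 12.94 at day 28 and at 11.73, 12.12, 11.98, 11.96 and 13.20 at day 91 in treated livers. The groups overlapped, and the change was 0.08 (limma, adjusted p = 0.913). In controls it rose by 2.22, from 9.64 to 11.86, so that the difference was -2.14 (limma, adjusted p = 0.013). Of 11 heme genes, Cpox rose by 0.61 and Ppox fell by 0.27, the 2 enzymes that act in sequence on porphyrinogens. The Ppox call was lost on leaving out any of 7 of the 10 arrays. Of 17 transporters 3 rose and 1 fell. The called share was 23.5% for transporters and 18.2% for heme genes, beside 17.2% over all genes tested. Abcc4, an efflux pump of the basolateral membrane, rose by 0.78, Abcc2, its canalicular relative, by 0.50 and the sterol transporter Abcg5 by 0.29, and the bile salt pump Abcb11 fell by 0.29. The calls of Abcc2, Abcc4 and Abcg5 were each lost without 2 to 4 of the 10 arrays, and without day 28 replicate 4 a single transporter rose.

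Genes of fatty acid oxidation had the most called rises by number among the 49 lists, which differ in size. Of 29 targets of the fatty acid sensor PPARA and oxidation enzymes, 10 were higher and 1 lower, at a median of 0.22. The called share was 37.9%, beside 17.2% called in either direction and 9.24% called higher over all genes tested. In controls 11 of the 29 were higher and none lower, at a median of 0.25. Slc25a20, the carnitine carrier of the mitochondrial membrane, was at 11.05, 10.93, 11.00, 10.70 and 10.74 at day 28 and at 11.53, 11.42, 11.31, 11.46 and 11.62 at day 91, with no overlap. It rose by 0.58 (limma, adjusted p = 6.19e-05), more than in controls by 0.42 (limma, adjusted p = 0.0104). On a second Slc25a20 probe set the order was reversed, with 0.22 in treated livers, not called, and 0.37 in controls. The adjusted p-values there were 0.0845 and 0.00385 (limma, over all probe sets outside the array controls). Plin5, a lipid droplet protein of oxidative tissues, was at 8.80, 9.51, 9.57, 9.37 and 9.22 and then at 9.85, 10.03, 9.85, 9.99 and 10.02, a rise of 0.65.

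Smaller rises were those of Eci2 by 0.43 and Pex11a by 0.43, both peroxisomal, Acaa1b by 0.25, Acadl by 0.22 and Acadm by 0.20. Cyp4a14, a fatty acid hydroxylase, went from 6.06, 6.37, 5.49, 6.35 and 5.85 to 8.91, 8.51, 6.89, 5.97 and 11.29. Day 91 replicate 4 lay within the day 28 range and replicate 5 was the highest by more than 2 log2 units. The rise of 2.29 (limma, adjusted p = 0.0235) was lost without day 91 replicate 1 or day 91 replicate 5, as well as with the covariate (limma, adjusted p = 0.215), and controls rose by 2.19. Fgf21, a fasting hormone, and Vnn1, a pantetheinase, rose by 1.04 and 1.01, calls that were lost without any of 8 and any of 9 of the 10 arrays. Hadha, a subunit of the mitochondrial trifunctional protein, fell by 0.47, and its call was lost without day 28 replicate 2 or day 28 replicate 4. With the 3′ to 5′ covariate the list's median was 0.25, and Slc25a20 and Pex11a were called.

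Fatty acid synthesis genes had fewer called rises in treated than in control livers. Of 18 tested, 1 rose and 2 fell in treated livers at a median of 0.01, and 8 rose in controls at a median of 0.29. For 6 of the 18 the treated change was called lower than the control change, beside 12.5% over all genes tested. Srebf1, a sterol-regulated activator of lipogenesis, rose by 0.60 in treated livers, Mlxipl, the carbohydrate-responsive factor ChREBP, fell by 0.37, and Acacb fell by 0.68 (limma, adjusted p = 0.0496), a call lost without any of 8 arrays. Aacs, which activates acetoacetate for lipid synthesis, was at 9.74 and 9.86 in treated livers while controls went from 8.42 to 10.15, a difference of -1.60 (limma, adjusted p = 0.00388). Of 19 cholesterol synthesis genes none rose and 4 fell, at a median of -0.17, and of 15 bile acid genes none rose and 2 fell, at a median of 0.02. Called shares were 16.7% for the fatty acid synthesis, 21.1% for the cholesterol and 13.3% for the bile acid list. Over all genes tested, 17.2% were called in either direction and 7.97% lower. Fdps, farnesyl diphosphate synthase, fell by 0.49, and Srebf2, the main activator of the pathway, by 0.33. The cholesterol count was 2 without day 28 replicate 2 or without day 91 replicate 5. None of these calls held with the covariate.

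Clock genes moved in both directions and much as in controls. Of 20 tested, 6 were higher and 2 lower in treated livers, and 3 were higher and 3 lower in controls. The called share in treated livers was 40%, beside 17.2% over all genes tested. The treated and control changes were not called different for any of the 20. Hlf, a clock output factor, was at 7.60, 8.10, 8.21, 7.70 and 8.24 and then at 8.68, 8.50, 8.41, 8.55 and 8.48, with no overlap and a rise of 0.55 (limma, adjusted p = 0.00284). Per2, a repressor of the core loop, rose by 0.75 and Bhlhe40 by 0.94, each with overlapping groups. Nfil3, a repressor of the same target sites as Hlf, fell by 0.70, with groups that met at 9.95. Arntl, the activator BMAL1, fell by 0.50 with no overlap, and the Arntl call was lost without day 28 replicate 2 or day 91 replicate 5. Tef, Noct and Usp2 rose by 0.62, 1.25 and 0.22 in calls that were lost without any of 6 to 8 arrays. The time of day at which livers were taken is not in the labels used here, and its part in these changes was not tested. The E-box, CACGTG, the site of the core activators, occurred on either strand in the RefSeq promoter window of 1 of the 6 called clock genes that matched, Tef, and 7.15% of all windows hold it. No clock gene was called with the 3′ to 5′ covariate, and 3 rose without day 28 replicate 2, without day 28 replicate 4 or without day 91 replicate 4.

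Sex-biased genes changed individually. Called shares were 6.67% for male-biased, 15.4% for female-biased and 15.4% for growth hormone and IGF axis genes, beside 17.2% over all genes tested. Of 15 male-biased genes Moxd1 alone rose, at a median of -0.02. Of 13 female-biased genes Cyp2b13 and Sult1e1 rose and none fell, at a median of 0.32. In controls 3 of these 13 rose, among them Cyp2b9 by 2.40 and Hao2, a peroxisomal hydroxyacid oxidase, by 2.34. Hao2 was at 6.45 ± 0.37 (SD, n = 5) and 7.85 ± 1.09 (SD, n = 5) in treated livers, a change of 1.40 that did not pass (limma, adjusted p = 0.0785). Of 13 genes of the growth hormone and IGF axis, Igfbp1 and Igf1 fell, and 4 fell in controls. The fall of Igf1 by 0.24 was on 1 of its 4 probe sets, and the other probe sets changed by -0.04, 0.06 and 0.08 without a call. Obp2a, a male-biased lipocalin, was at 4.99 and 5.02 in treated livers while it rose from 5.78 to 7.26 in controls, a difference of -1.47 (limma, adjusted p = 0.00717).

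Of the other metabolic lists, 3 of 16 gluconeogenesis, fasting and glucocorticoid genes fell, Igfbp1, Irs2 and the aspartate transaminase Got1 by 0.64, and none rose. Among 14 taurine, methionine and one-carbon genes Pemt, which makes phosphatidylcholine, fell by 0.32 and Bhmt2 rose by 0.21, and of 10 retinoid genes the retinol dehydrogenase Rdh10 rose by 0.28. Of 13 NRF2 antioxidant genes 3 fell and none rose, the ferritin heavy chain Fth1 by 0.19, Osgin1 by 0.56 and Srxn1 by 0.28, and 1 fell without day 28 replicate 1, day 28 replicate 4, day 91 replicate 2, day 91 replicate 4 or day 91 replicate 5. Of 16 oncofetal and postnatally silenced genes Tff3 and Lpl fell and the transcription factor Sox4 rose by 0.49, and of 12 immediate early genes Klf4 rose by 0.34. The calls of Sox4, Klf4 and Bhmt2 were lost without any of 4, 6 and 5 arrays. Called shares were 18.8% for the gluconeogenesis, 14.3% for the one-carbon, 10% for the retinoid and 23.1% for the NRF2 list. They were 18.8% for the oncofetal and 8.33% for the immediate early list, beside 17.2% over all genes tested.

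Some interferon, acute phase, ER and proteasome genes fell by small amounts. The share of members called, all of them lower, was 19.2% for the interferon, 17.2% for the acute phase and 16% for the ER list. It was 10% for the heat shock, 28.6% for the proteasome and 15.4% for the oxidative phosphorylation list. Over all genes tested, 7.97% were called lower and 17.2% in either direction. Of 26 interferon response genes none rose and 5 fell, at a median of -0.19, and in controls 6 fell at a median of -0.27. Cxcl9, a chemokine induced by interferon gamma, was at 8.86, 8.92, 8.90, 8.69 and 8.96 and then at 7.91, 8.29, 7.59, 7.77 and 8.13, a fall of 0.93 with no overlap (limma, adjusted p = 0.0176). Usp18, which restrains interferon signalling, fell by 0.62, Ifit3 by 0.50, Cxcl10 by 0.70 and Stat2 by 0.33. The Cxcl10 and Stat2 calls were lost without any of 9 and any of 7 arrays.

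Of 29 acute phase genes none rose and 5 fell, at a median of -0.17. They were Stat3, the transcription factor of the response, by 0.46, the fibrinogen chains Fga, Fgb and Fgg by 0.12, 0.15 and 0.12, and Crp by 0.16. The Fga and Crp calls were lost without day 28 replicate 4. Of 25 ER chaperone and unfolded protein response genes 4 fell, Pdia6 by 0.44, Pdia4 by 0.28, Edem1 by 0.23 and Pdia3 by 0.21, and of 10 heat shock genes 1 fell, Hspd1 by 0.18. The Pdia3 and Pdia4 calls were lost without any of 7 and any of 6 arrays.

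Proteasome subunits fell in 8 of 28 cases and rose in none, at a median of -0.08. The catalytic subunit gene Psmb7 was at 10.48, 11.05, 10.62, 11.22 and 11.01 and then at 10.21, 10.13, 10.22, 10.32 and 10.19, a fall of 0.66 (limma, adjusted p = 0.00622). Psmd3 fell by 0.32, Psmb2 by 0.26 and Psmc2 by 0.23. In controls 2 subunits fell, Psma4 and Psmd1. Of 39 oxidative phosphorylation subunits 6 fell and none rose, at a median of -0.02, a count between 1 and 6 when single arrays were left out, and 1 without day 28 replicate 2 or day 91 replicate 5. Sdhc fell by 0.29 and Atp5b by 0.24. Ndufb5, also among the 6, fell by 0.18 on the probe set used. Its second probe set, 1417102_a_at, rose by 0.18 (limma, adjusted p = 0.0339 over all probe sets outside the array controls). No gene of the interferon, acute phase, ER, heat shock, proteasome or oxidative phosphorylation lists was called with the 3′ to 5′ covariate.

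**Figure D5:**
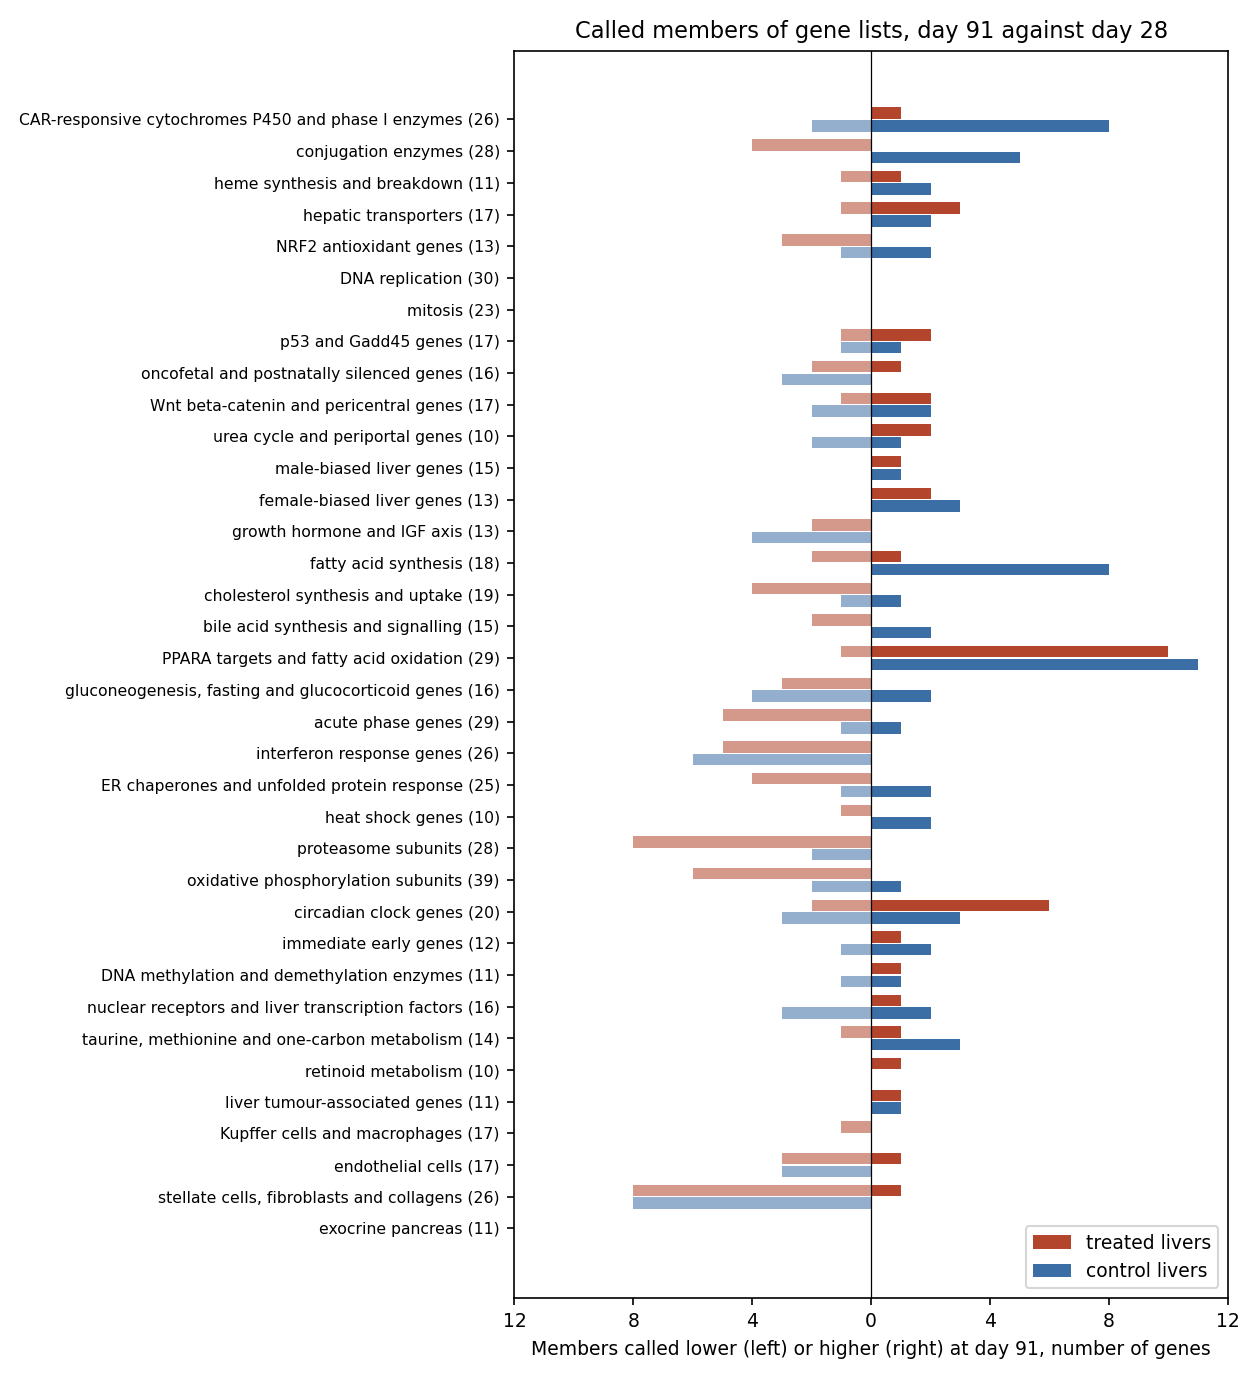
Number of members called higher (right) and lower (left) at day 91 against day 28 in treated (red) and control (blue) livers, for lists with at least 10 genes tested (in brackets). Fatty acid oxidation genes rose in both (10 and 11 of 29) and collagen and stroma genes fell in both (8 and 8 of 26). CAR-responsive genes (1 and 8 of 26) and fatty acid synthesis genes (1 and 8 of 18) had more called rises in controls. The treated change was called lower than the control change for 4 and 6 of these genes, and for none with the 3′ to 5′ covariate.

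Several genes had changes of opposite sign in treated and control livers. The mean 3′ to 5′ difference changed by 0.162 in treated livers and by -0.093 in controls (exact permutation p = 0.00794 and 0.333). Its part in the changes of these genes was not tested beyond the covariate. Hsf2, a heat shock transcription factor, was at 5.49, 5.64, 5.60, 5.18 and 5.50 and then at 6.71, 6.35, 6.90, 6.85 and 6.54 in treated livers, a rise of 1.19, and fell by 0.76 in controls. Pacc1, a proton-activated chloride channel, rose by 1.24, Gm9222 by 1.05 and Map3k12, a neuronal stress kinase, by 1.03, with control changes of -0.68, -0.68 and -0.40 that were not called. The differences for these 4 genes were 1.95, 1.92, 1.73 and 1.43, all called. The other probe sets of Hsf2, Pacc1 and Map3k12 showed no call, and most of them did not pass the filter on low values. With the covariate the 4 rises were 0.85, 0.67, 0.83 and 0.61, and none was called.

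Ppargc1a, the coactivator of mitochondrial genes and gluconeogenesis, was at 7.68, 6.99, 7.23, 6.83 and 6.84 and then at 7.86, 7.16, 8.09, 8.44 and 7.80. The change of 0.75 was not called (limma, adjusted p = 0.0658), but it fell by 1.33 in controls, and the difference was 2.09 (limma, adjusted p = 0.00177). All 4 other Ppargc1a probe sets had the same signs. Falls in treated livers at rises in controls were those of Mlf2 (-0.83 and 0.53) and Creld1 (-0.64 and 0.42), both called in both. Taok2, a MAP kinase kinase kinase, fell by 0.76 at 0.29 in controls without a call. The Creld1 call alone among these 3 held with the covariate (limma, adjusted p = 0.0393).

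Among Wnt and pericentral genes, 2 of 17 rose and 1 fell, at a median of 0.04. The called share was 17.6%, beside 17.2% over all genes tested. Prox1, a hepatocyte homeobox factor, rose by 0.98 and fell by 0.92 in controls, Znrf3, a negative regulator of Wnt receptors, rose by 0.42, and Gulo, the vitamin C synthesis enzyme, fell by 0.43. The Prox1 call was lost without day 28 replicate 4, day 91 replicate 1 or day 91 replicate 4, its 2 other probe sets were not called, and the Znrf3 call was lost without any of 7 arrays. Ctnnb1, the gene of beta-catenin, was at 12.54 and 12.55 on its brightest probe set, whereas its 2 dimmer probe sets fell by 0.79 and 0.35. Of 10 periportal genes 2 rose, the lipid droplet dehydrogenase Hsd17b13 by 0.40 and the urea cycle enzyme Otc by 0.14. The Hsd17b13 call held with the covariate, and the Otc call was lost without any of 5 arrays.

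None of 30 DNA replication genes and none of 23 mitosis genes was called (limma), at medians of -0.06 and -0.13, and 2 and 0 of them had an unadjusted p under 0.05. The change was negative for 17 of the 30 and for 20 of the 23. Of the 23 mitosis genes, 12 lay below the array median on all 20 arrays compared, which limits what they can show. A second probe set of the replication gene Rfc4 rose by 0.63 (limma, adjusted p = 0.0464 over all probe sets outside the array controls). Mki67, the marker of cycling cells, changed by -0.18 (limma, adjusted p = 0.760) and was above the array median on 0 of 5 treated arrays at each time. Of 17 p53 and Gadd45 genes Ei24 and Perp rose, by 0.27 and 0.20, and Sesn1 fell by 0.25, and Cdkn1a, the cell cycle inhibitor p21, changed by -0.40 (limma, adjusted p = 0.337). The called share of this list was 17.6%, beside 17.2% over all genes tested. The Perp and Sesn1 calls were each lost without any of 6 arrays. Of 11 liver tumour-associated genes Ccn2, a matricellular growth factor, rose by 0.98, a call also lost without any of 6 arrays. Of the enzymes that set DNA methylation, Dnmt1, Dnmt3a, Dnmt3b, Tet2 and Tet3 were not called, with changes from -0.19 to 0.15, and Tet1 did not pass the filter on low values. A second Tet2 probe set, 1438781_at, fell by 0.43 (limma, adjusted p = 0.0314 over all probe sets outside the array controls). The 1 called gene of the 11 tested in that list was Smug1, a uracil DNA glycosylase, which rose by 0.67, a call lost without any of 4 arrays. The called share was 9.09% for this list and also for the tumour-associated list, beside 17.2% over all genes tested.

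Other probe sets of a gene did not always share its call. Of 53 called genes described here with another tested probe set, 24 had another called in the same direction and 29 did not. None of these 53 had another called in the opposite direction, whereas Ndufb5, which is not in this count, did. For 8 of the 29, Bhmt2, Edem1, Eng, Pdia6, Sesn1, Sox4, Tef and Znrf3, no other probe set had the same sign. Col3a1 and Slc25a20 each had a second probe set with a smaller change, -0.29 and 0.22, that was not called.

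Markers of other cell types were checked because whole liver pieces hold them. Kupffer cell markers averaged 8.37 to 8.72 per array at day 28 and 8.31 to 8.65 at day 91, with 1 of 17 called, the complement gene C1qc, which fell by 0.62 and lost its call without day 28 replicate 2. Of 17 endothelial markers 3 fell, Pecam1 by 0.42, Eng by 0.29 and Ramp2 by 0.26, and Bmp2 rose by 0.58, while the list averaged 7.82 to 8.14 and 7.82 to 8.02. The called share was 5.88% for the Kupffer cell and 23.5% for the endothelial list, beside 17.2% over all genes tested. It was 22.2% for the hepatocyte, 16.7% for the B and plasma cell and 20% for the kidney list. Without day 28 replicate 2 neither the endothelial falls nor the Bmp2 rise was called. Of 9 hepatocyte markers 2 fell, Ahsg by 0.21 and Fgb, at list averages of 14.24 to 14.31 and 14.16 to 14.26. No member of the neutrophil, T and NK cell, MHC class II, cholangiocyte, pancreas, erythroid, muscle, adipose and mesothelium lists was called (limma), and 0 to 3 of each list had an unadjusted p under 0.05. The pancreas list averaged 6.05 to 6.13 and then 5.86 to 6.01, without overlap. So did the erythroid list, at 6.13 to 6.28 and 6.01 to 6.11, and the muscle list, at 5.43 to 5.51 and 5.26 to 5.41. Averages of the others overlapped. All 6 tested T and NK cell genes and all 6 MHC class II genes had negative changes. Second probe sets of the T cell marker Cd8a and the cholangiocyte marker Epcam fell, by 0.25 and 0.31 (limma, adjusted p = 0.0353 and 0.0219 over all probe sets outside the array controls). In these 9 lists 3 to 9 of the 5 to 16 markers with a probe set lay below the array median on all 20 arrays compared. Jchain, the immunoglobulin joining chain, was the called member of 6 B and plasma cell genes, at a rise of 0.55 that was lost without any of 4 arrays. The other 5 had negative changes, and the list median was -0.15. Jchain lay above the array median on 0 of 5 treated day 28 arrays and on 3 of 5 treated day 91 arrays. Slc5a2, a renal glucose carrier, was the called member of 5 kidney genes, at a fall of 0.39, and the kidney list averaged 5.34 to 5.46 and 5.22 to 5.60. The part of these cell types in the matrix and interferon changes was not tested.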

How the data were processed

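Mouse liver RNA was measured on 39 arrays of 45101 probe sets in 8 groups. The authors deposited 1 log2 value per probe set and array, and the submitters' processing notes name GCOS. How background was corrected and arrays were normalized is not stated in the labels used here. Genes came from the platform annotation: 34958 probe sets had 1 symbol, 932 several, 9211 none, and 34754 were matched by gene number. Each of 18193 genes was read from 1 probe set, the brightest by its mean on all 39 arrays, and the 12580 above the array median on at least 4 arrays were tested.

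Limma 3.58.1 in R 4.3.3 fitted 1 mean per group to all 39 arrays (trend, 31 residual degrees of freedom, 2-sided), with Benjamini-Hochberg adjustment over all genes tested and calls at an adjusted p under 0.05. Tested on simulated data, 84% of changes of 0.5 and 99.5% of changes of 1 log2 unit were recovered for the treated comparison over 12580 genes, with 5.66% false among calls. For the difference between the changes 57% and 97% were recovered, and for controls 7.85% of calls were false. The simulated noise was independent between genes, without an array-wide shift such as the 3′ to 5′ difference, so these shares do not cover it.

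The members and the 49 gene lists (34 pathway, 15 cell marker) were chosen with earlier results of these data known. Of 874 list genes, 793 had a probe set and 716 were tested. Genes were named by rule: the 12 largest rises and 12 largest falls among calls with separate groups, the 5 highest and 5 lowest differences between treated and control change, the 3 largest calls shared by both in each direction, up to 4 called members of each list by p (or 2 without a call), and a fixed set (Cyp2b10, Cyp2c55, Cyp2c65, Cyp3a11, Nebl, Meg3, Rian, Mki67, Cdkn1a, Nr1i3, Ctnnb1, Dnmt and Tet genes). Genes named outside it, chosen after their values were seen, were Lgals1, Cav1, Rasgrp2, Tmeff2, Apoa4, Arhgef7, Creld1, Arntl, Tef, Noct, Usp2, Fgf21, Vnn1, Pex11a, Hadha, Col6a3, Acaa1b, Acadm, Crp, Cxcl10, Cyp2b9, Hao2, Col1a2, Pdgfra, Gm10419, Ccn4, Bgn, Lox, Col5a2, Psma4 and Psmd1. Promoter windows are from RefSeq, GRCm38.p6. Alternatives varied the normalization, filter, probe set rule, variance model, covariates and arrays used.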

Additional observations from a re-analysis of the deposited data

Results flagged for a closer look

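One array lay far from the other 4 of its group in 24 of 340 groups of 5 arrays checked, where chance alone flags about 5% of groups (Dixon's criterion). Ptgds was at 10.92 on day 28 replicate 4 and at 8.86 to 9.44 on the others. Igfbp1 was at 8.53 on day 28 replicate 5 and at 10.81 to 11.66 on the others. Fgf21 was at 7.30 on day 28 replicate 1 and at 6.14 to 6.32 on the others. Rian was at 7.34 on day 28 replicate 4 and at 8.25 to 8.54 on the others. Cxcl10 was at 7.90 on day 28 replicate 4 and at 6.98 to 7.11 on the others. Cxcl10 was at 6.28 on day 91 replicate 4 and at 6.55 to 6.61 on the others. Alas1 was at 13.20 on day 91 replicate 5 and at 11.73 to 12.12 on the others. Acacb was at 9.94 on day 91 replicate 2 and at 9.07 to 9.30 on the others. Arntl was at 8.11 on day 91 replicate 5 and at 8.66 to 8.86 on the others. Nr3c1 was at 10.20 on day 91 replicate 5 and at 9.84 to 9.91 on the others. Taok2 was at 6.11 on day 91 replicate 1 and at 6.43 to 6.53 on the others. The other genes at day 28 were Bgn at 10.19 on replicate 3, Cyp2c55 at 13.55 on replicate 4, Klf4 at 5.02 on replicate 2, Pdia3 at 13.28 on replicate 5, Stat2 at 7.58 on replicate 3. Those at day 91 were Fga at 14.02 on replicate 2, Klf4 at 5.35 on replicate 4, Usp2 at 6.89 on replicate 2. The mean of the Kupffer cell list was 8.65 on treated day 91 replicate 4, that of the adipose list 5.35 on day 28 replicate 4 and 5.27 on day 91 replicate 5, and that of the kidney list 5.34 on day 28 replicate 3. The 3′ to 5′ difference was 0.87 on control day 91 replicate 1.

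For 67 of the genes named, the treated change differed from the control change (limma interaction contrast, adjusted p under 0.05). Among genes called in treated livers the difference was positive for Cyp2b13 2.90, Moxd1 2.03, Hsf2 1.95, Pacc1 1.92, Prox1 1.90, Gm9222 1.73, Map3k12 1.43, Smug1 1.08, Lpl 1.04, Kcnk1 1.03, Tmeff2 1.01, Bmp2 0.94, Sox4 0.90, Irs2 0.89, Abcc2 0.80, Nebl 0.75, Cav1 0.71, Znrf3 0.69, Pdgfra 0.59, Rasgrp2 0.57, Klf4 0.48, Slc25a20 0.42, Nr3c1 0.37, Abcg5 0.36, Hsd17b13 0.35, Bhmt2 0.33, Rdh10 0.29 and Otc 0.22. It was negative for Mlf2 -1.36, Creld1 -1.06, Taok2 -1.05, Gstm2 -1.03, Psmb7 -1.0, Sod3 -0.92, Hadha -0.82, Got1 -0.80, Slc5a2 -0.71, Arhgef7 -0.58, Fdps -0.56, Pecam1 -0.52, Gstm4 -0.49, Sdhc -0.49, Gulo -0.47, Pemt -0.46, Psmd3 -0.44, Psmb2 -0.44, Mlxipl -0.42, Srxn1 -0.42, Ppox -0.40, Srebf2 -0.39, Atp5b -0.37, Gstm1 -0.33, Edem1 -0.32, Fth1 -0.32, Bgn -0.28, Sult1a1 -0.27, Psmc2 -0.24 and Hspd1 -0.22. Among genes not called in treated livers the differences were Ppargc1a 2.09, Meg3 0.77, Dnmt3a 0.48 and Ctnnb1 0.16 on the positive side and Alas1 -2.14, Aacs -1.60, Obp2a -1.47, Gstt3 -1.38 and Cyp2b10 -1.26 on the negative side. The array measure of 3′ against 5′ signal also moved in treated livers, and its part in these differences was not tested beyond the covariate, with which no difference passed and 1775 had an unadjusted p under 0.05 (limma).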

How the results depend on the processing

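Treated counts were 1708 higher and 1983 lower with array weights, 475 and 363 with mean spike-in signal as covariate, and 30 and 18 with the 3′ to 5′ covariate. For controls these settings gave 2002 and 1278, 573 and 349, and 612 and 409, and the compared arrays only gave 484 and 383. For the difference between the changes they gave 1908 and 2909, 60 and 75, and 0 and 0 (limma, 1775 at an unadjusted p under 0.05). Genes shared in the same direction numbered 234, 88 and 18, and in opposite directions 915, 5 and 1, with 48 by the compared arrays only. Leaving out single arrays gave 686 to 1241 higher and 511 to 1053 lower for treated, 563 to 1504 and 398 to 857 for controls, 739 to 1463 and 981 to 2166 for the difference, 99 to 161 shared in the same direction and 47 to 345 in opposite directions, and a 3′ to 5′ difference of 0.145 to 0.182. Quantile normalization, median centring, no filter, a stricter filter (75th percentile), probe sets averaged per gene, no trend and a robust prior each kept these counts of calls within 1.5 times. Ctnnb1 turned to -0.377 with the mean of its probe sets (limma, adjusted p = 0.00149), 2 of which fell. Of 131 called genes in the table of named genes, 24 passed with the 3′ to 5′ covariate, 78 with the spike-in covariate and 94 without treated day 28 replicate 4. The cause of these shifts was not tested. No paired analysis was made, since the labels link no array of one group to an array of another. Replicate numbers used here follow accession order and pair nothing. Signals near the array background limit what low genes can show.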

Other observations

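Probe sets that the platform annotation gives more than 1 gene symbol stayed out of the gene table, and 598 of 932 of them passed the filter on low values. Of these, 29 were higher and 54 lower at day 91 in treated livers (limma, adjusted p under 0.05 over all probe sets outside the array controls). The 3 probe sets annotated with several immunoglobulin kappa segments were chosen after their values were seen. Probe set 1452417_x_at went from 6.51 to 7.80, a rise of 1.30 (limma, adjusted p = 0.000852), at 0.09 in controls, and probe set 1427660_x_at from 7.46 to 8.31, a rise of 0.85 (limma, adjusted p = 0.00738), at 0.05 in controls. The third, 1427455_x_at, changed by 0.20 (limma, adjusted p = 0.518). Probe set 1424853_s_at, annotated with a pair of Cyp4a genes, rose by 1.39 (limma, adjusted p = 0.0491), at 1.33 in controls without a call.

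Of 9160 probe sets without a gene symbol outside the array controls, 2887 passed the filter, and 180 were higher and 106 lower at day 91 in treated livers.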
